A study of Homo sapiens with 24 samples.

Results

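OCUG-1, a line grown from a human gallbladder cancer, was exposed to 1.25 µM sorafenib for 72 h and compared with vehicle-treated OCUG-1 across all genes. The comparison rests on 6 RNA-sequencing libraries, 3 with 1.25 µM sorafenib and 3 with vehicle (DMSO, at most 0.1%), out of 24 libraries in the series and 12 of this line. Of 78724 gene identifiers in the count table, 20511 passed the filter on low counts and were tested. The libraries came from independent biological replicates of cells kept in DMEM. Further groups enter where they bear on the low dose. These were OCUG-1 at 10 µM sorafenib for 72 h (3 libraries), HuCCT1 at 1.25 µM sorafenib for 72 h (3 libraries), and HuCCT1 with vehicle (3 libraries). HuCCT1, grown in RPMI, is a line of intrahepatic cholangiocarcinoma, so line and medium differ together, and each cancer is represented by a single line. The remaining OCUG-1 libraries, with 1.25 µM sorafenib and 1 µM IACS-010759 (an inhibitor of respiratory complex I) together, were not compared. They entered the filter on low counts, the scaling and the estimate of the spread between replicates, as did the libraries at 10 µM. When the 10 µM and the combination libraries were both left out, 18107 genes passed the filter instead of 20511.

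Sorafenib is a kinase inhibitor that binds RAF kinases and several receptor tyrosine kinases, among them the VEGF and PDGF receptors. RAF stands at the head of a relay, RAF to MEK to ERK, that carries growth factor signals to the nucleus, and active ERK raises transcription of its own feedback genes, such as the DUSP phosphatases, the Sprouty and SPRED inhibitors and the ETS factors ETV1, ETV4 and ETV5. In cells without mutant BRAF, RAF inhibitors are known to lower ERK signalling at some concentrations and to raise it at others. Biliary and gallbladder epithelium shares parts of its transcription programme with hepatocytes, and lines derived from it can make liver-type secreted proteins such as fibrinogen and complement.

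The total count was 14388855 to 22823918 in the sorafenib libraries and 16295146 to 16788347 in the vehicle libraries. All 14 biliary epithelial markers passed the count filter, among them the keratin KRT8 at 3832 to 5028 CPM in sorafenib libraries and 3079 to 3652 CPM in vehicle libraries, while the adhesion protein CDH1 stayed under 5 CPM in each library. CPM (counts relative to the library total, in the usual unit) are here adjusted by TMM (trimmed mean of M values) factors. Biliary markers summed to 6561 to 8308 CPM with sorafenib and 5537 to 6370 CPM with vehicle, and 3 of 14 rose and 2 fell. Of the immune markers, 3 of 10 (CD3E, CD3D and MS4A1) had no count in any of the 6 libraries, and the summed level of the whole list was 7.41 to 7.92 CPM with sorafenib and 6.11 to 7.99 CPM with vehicle. Endothelial markers summed to 7.99 to 11.2 CPM with sorafenib and 5.54 to 7.63 CPM with vehicle. Fibroblast markers summed to 217 to 237 CPM with sorafenib and 172 to 193 CPM with vehicle. Of 7 tested fibroblast markers 1 rose, THY1, and COL1A2 was at or under 0.198 CPM in each library. The part of other cells in the results was not tested. Replicates of a group differed by more than counting error: chi-square over its degrees of freedom was 5.88 to 26.7 for pairs of sorafenib libraries and 5.73 to 18 for pairs of vehicle libraries. Along the first principal component of the 12 OCUG-1 libraries (69.0% of variance) the sorafenib and vehicle libraries overlapped, and components 2 and 3 (7.15% and 5.35%) each held the 3 sorafenib libraries on one side of the 3 vehicle libraries.

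After 1.25 µM sorafenib 1214 genes were higher (5.92% of those tested) and 946 were lower (4.61%) by edgeR's quasi-likelihood test, at a Benjamini-Hochberg adjusted p under 0.05 over all tested genes. A gene is called risen or fallen below only where it passed that threshold. Each count of list members for this comparison stands beside these shares of all tested genes, 5.92% and 4.61%. The changes were mostly small: the median size among called genes was 0.56 on the log2 scale, and 354 genes changed at least 2-fold, 113 up and 241 down. At least 4-fold changes were seen in 12 genes that rose and 27 that fell. The median log2 fold change over all tested genes was -0.03. In bulk RNA, fewer cells of a kind and less RNA per cell cannot be told apart. Directions are relative to the bulk of genes: of the called genes 56.2% were higher after TMM scaling, 28.8% after scaling by library size alone and 45.3% when only genes with higher counts were tested (minimum count of 50). Without 1 library the number of called genes was 653 (sorafenib replicate 2), 802 (vehicle replicate 3), 839 (vehicle replicate 1), 1082 (sorafenib replicate 3), 2059 (vehicle replicate 2) and 2558 (sorafenib replicate 1).

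Transcripts known as outputs of ERK signalling were higher. Of 18 tested genes of the MAPK output list 10 rose and 1 fell, against 5.92% and 4.61% of all genes, and the median log2 fold change was 0.58. The counts were 9 to 11 up and 0 to 1 down with any 1 library left out. All 3 sorafenib libraries were above all 3 vehicle libraries for 13 of the 18 genes, and for 3065 of all 20511 tested genes. ETV5, an ETS transcription factor of the PEA3 group (ENSG00000244405, chr3:186046308-186110318, minus strand), had 39.6, 42.8 and 49.8 CPM in the sorafenib libraries and 13.6, 13.8 and 15.4 CPM in the vehicle libraries. The groups were wide apart, with a log2 fold change of 1.63 ± 0.11 (fitted value ± SE, here and below; adjusted p = 1.66e-07). Its relative ETV4 had 40.8, 35.5 and 35.5 CPM in the sorafenib libraries and 15.3, 13.7 and 14.9 CPM in the vehicle libraries, again without overlap, and rose by 1.35 ± 0.12 (adjusted p = 1.99e-06). PHLDA1, a pleckstrin-homology protein induced by growth factors, had 93.3, 95.2 and 93.5 CPM in the sorafenib libraries and 41.05, 38.8 and 42.5 CPM in the vehicle libraries. It varied little within either group and rose by 1.20 ± 0.09 (adjusted p = 4.73e-07). SPRED1, a membrane-bound inhibitor of RAS to RAF signalling, had 32.3, 35.1 and 34.2 CPM in the sorafenib libraries and 13.9, 20.1 and 17.9 CPM in the vehicle libraries and rose by 0.97 ± 0.14 (adjusted p = 0.000433). DUSP6, the phosphatase that removes phosphate from ERK itself, had 333, 247 and 237 CPM in the sorafenib libraries and 196, 123 and 154 CPM in the vehicle libraries. Every sorafenib library was above every vehicle library, but sorafenib replicate 1 and vehicle replicate 1 were the highest of their groups, and the log2 fold change was 0.79 ± 0.18 (adjusted p = 0.0115). The other members that rose were ETV1, DUSP4, DUSP5, SPRED2 and the cyclin CCND1. The call of CCND1 (0.36 ± 0.11) ended when any library other than sorafenib replicate 1 was left out, with an adjusted p of up to 0.136.

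Not all ERK-linked transcripts moved that way. MYC, a transcription factor that drives growth, was the member that fell, with 66.2, 78.98 and 90.6 CPM in the sorafenib libraries and 109, 114 and 112 CPM in the vehicle libraries. All sorafenib libraries were below all vehicle libraries and the log2 fold change was -0.51 ± 0.12 (adjusted p = 0.0113), though the call ended without sorafenib replicate 2 (adjusted p = 0.0564). The Sprouty genes SPRY2 and SPRY4, feedback inhibitors of receptor signalling, overlapped between groups and were not called (0.43 ± 0.15 and 0.22 ± 0.17). The immediate-early list, transcription factors that respond within minutes to hours, had 2 of 25 genes up and 1 down with a median of 0.08. These shares, 8.0% and 4.0%, lay near the 5.92% and 4.61% of all tested genes. The genes up were NR4A1 (0.95 ± 0.21) and the stress factor ATF3 (0.94 ± 0.16), and the one down was the AP-1 member FOSL2 (-0.39 ± 0.12). The call of NR4A1 ended without vehicle replicate 1 (adjusted p = 0.0577) and that of FOSL2 without any 1 library. BRAF, a kinase that sorafenib binds, had a log2 fold change of -0.16 ± 0.11 and was not called. Of 14 tested ligands of the EGF family, 1 rose (7.14%, also near the share of all genes): TGFA, a ligand of the EGF receptor, at 0.55 ± 0.11 (adjusted p = 0.00548).

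**Figure D1:**
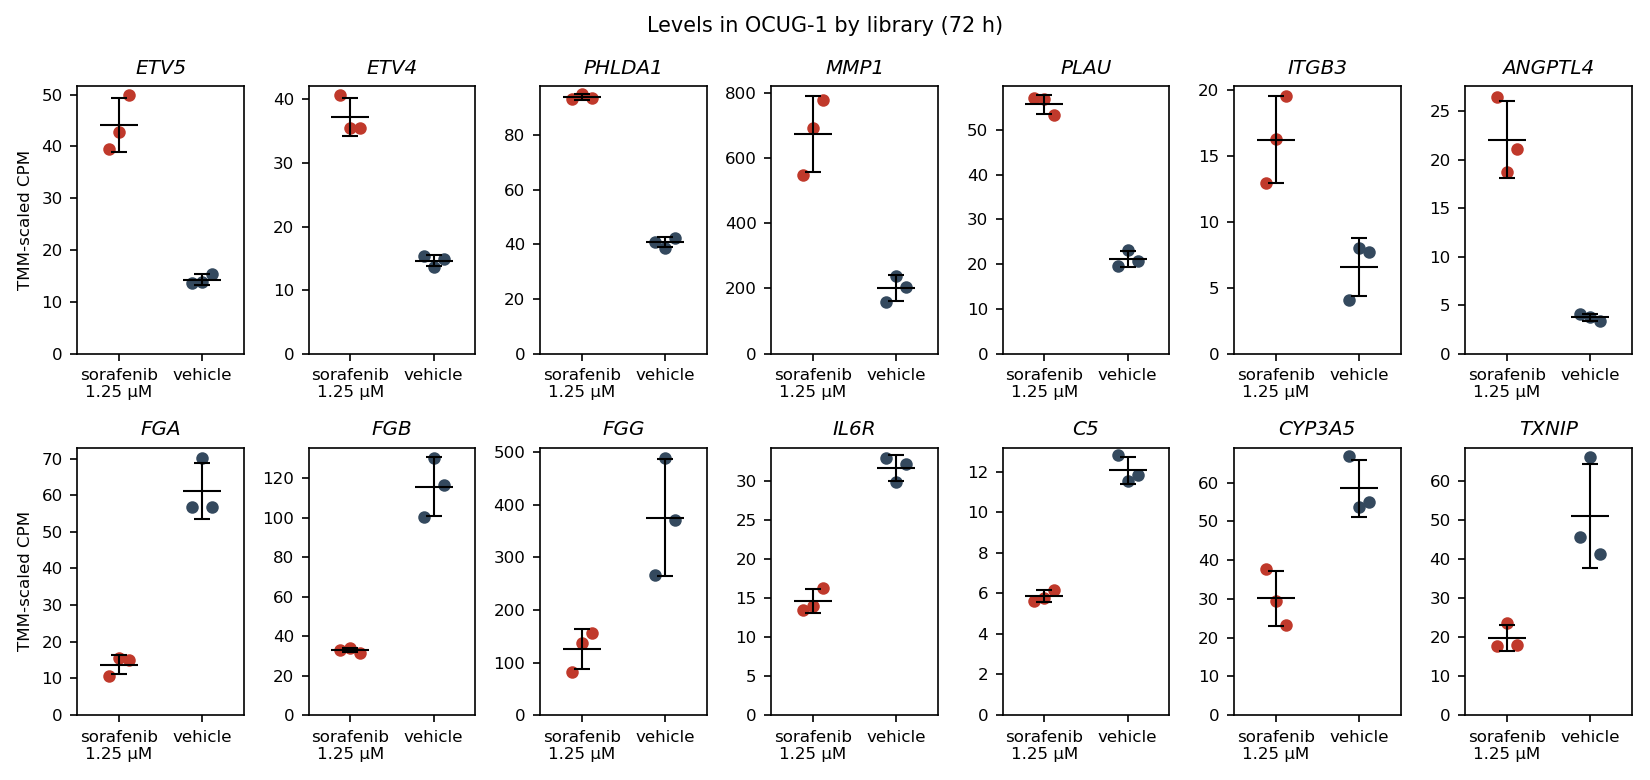
TMM-scaled CPM (vertical axis, from 0) of 14 genes in each OCUG-1 library, with 1.25 µM sorafenib at the left (red) and vehicle at the right (dark). Points are libraries, the horizontal mark is the mean and the bars are the SD (n = 3). In each panel of the upper row the sorafenib libraries lie above the vehicle libraries, and in each panel of the lower row below them.

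Genes of matrix attachment and of proteolysis outside the cell were higher. MMP1, the interstitial collagenase, had 549, 691 and 779 CPM in the sorafenib libraries and 159, 238 and 206 CPM in the vehicle libraries. Sorafenib and vehicle libraries stood far apart and MMP1 rose by 1.74 ± 0.17 (adjusted p = 6.18e-06). PLAU, the urokinase that turns plasminogen into plasmin, had 57.1, 56.9 and 53.2 CPM in the sorafenib libraries and 19.6, 23.1 and 20.7 CPM in the vehicle libraries, with nearly equal replicates, and rose by 1.40 ± 0.12 (adjusted p = 1.03e-06). F3, the tissue factor that starts clotting, rose as well (0.67 ± 0.14, adjusted p = 0.00501), and so did TFPI, the inhibitor of tissue factor (0.58 ± 0.12, adjusted p = 0.00664). In all, 5 of 15 tested coagulation and fibrinolysis genes rose and none fell, with a median of 0.36 and 4 to 5 rises when any 1 library was left out. The urokinase receptor PLAUR was among them. The fibrinogen chains, which fell, are not members of this list and are given below with the acute phase genes. Of 14 metalloproteinases and inhibitors 4 rose, MMP1 with MMP3, MMP10 and TIMP1. MMP3 and MMP10 were at or under 1.82 CPM in each library, TIMP1 overlapped between groups, and MMP1 alone kept its call whichever library was left out.

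Integrins, the receptors through which cells hold the matrix, rose for 7 of 12 tested members and fell for none, with a median of 0.58. ITGB3, the beta chain of the vitronectin receptor, had 12.9, 16.3 and 19.5 CPM in the sorafenib libraries and 4.07, 8.01 and 7.75 CPM in the vehicle libraries and rose by 1.29 ± 0.21 (adjusted p = 0.000973). ITGB5, a beta chain with overlapping ligands, had 215, 268 and 297 CPM in the sorafenib libraries and 144, 167 and 151 CPM in the vehicle libraries (0.76 ± 0.14, adjusted p = 0.00285). ITGA3, an alpha chain of laminin receptors, had 1078, 1012 and 1030.0 CPM in the sorafenib libraries and 715, 653 and 677 CPM in the vehicle libraries (0.61 ± 0.12, adjusted p = 0.00351). For each of these chains the lowest sorafenib library exceeded the highest vehicle library. Leaving out a library changed the number of integrin calls: 3 without sorafenib replicate 2 or vehicle replicate 1, 4 without sorafenib replicate 3, and 5 to 8 otherwise.

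Cytokines split. Of 18 tested NF-kB targets 4 rose and 2 fell, with a median of 0.01. After scaling by library size alone 4 rose and 5 fell. Without sorafenib replicate 2 none fell, 1 fell without vehicle replicate 1 or 3, 3 fell without sorafenib replicate 1 or vehicle replicate 2, and 3 rose whichever library was left out. CXCL8, the neutrophil chemokine interleukin 8, had 1479, 1584 and 2011 CPM in the sorafenib libraries and 722, 787 and 1111 CPM in the vehicle libraries and rose by 0.95 ± 0.17 (adjusted p = 0.00321). IL1B, the cytokine interleukin 1 beta, had 12.1, 12 and 14.6 CPM in the sorafenib libraries and 5.31, 6.02 and 5.25 CPM in the vehicle libraries (1.22 ± 0.20, adjusted p = 0.000959), and IL1A had 0.86 ± 0.19. For CXCL8 and IL1B no sorafenib library reached down to a vehicle library, while BIRC3, an inhibitor of apoptosis, was lower in every sorafenib library (-0.60 ± 0.14, adjusted p = 0.0113), a call that ended without sorafenib replicate 2 (adjusted p = 0.0701). The remaining rise was CCL2 and the other fall CXCL2. Single members of further pathways rose together with them: JAG1, a ligand of Notch receptors, with 60.4, 68.8 and 71.6 CPM in the sorafenib libraries and 29.4, 33.4 and 30.8 CPM in the vehicle libraries (1.10 ± 0.10, adjusted p = 3.44e-06), the activin subunit INHBA (0.74 ± 0.11, adjusted p = 0.000631), the insulin-like growth factor binder IGFBP3 (0.93 ± 0.13, adjusted p = 0.000227) and the receptor kinase AXL (0.58 ± 0.12, adjusted p = 0.00582). Of the lists they belong to, 1 of 13 Notch genes, 3 of 19 TGF-beta genes, 3 of 18 genes of the IGF, PI3K and FOXO list and 5 of 15 YAP targets rose, with 0, 0, 1 and 1 falls. The Notch share of 7.69% lay near the 5.92% of all tested genes that rose. The IGF list had 1 rise without sorafenib replicate 2 or 3 and the YAP list 3 without vehicle replicate 1. After scaling by library size alone the IGF list had 2 rises and 3 falls and the YAP list 4 rises and 3 falls. NT5E, the surface enzyme CD73 that makes adenosine, had 20.1, 34 and 36.2 CPM in the sorafenib libraries and 8.89, 13.6 and 9.48 CPM in the vehicle libraries and was among those YAP targets (1.5 ± 0.20, adjusted p = 0.000404).

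ANGPTL4, a secreted inhibitor of lipoprotein lipase that hypoxia and PPAR factors induce (ENSG00000167772, chr19:8363289-8374373), was the largest rise named by rank. It had 26.4, 18.7 and 21.1 CPM in the sorafenib libraries and 4.07, 3.79 and 3.34 CPM in the vehicle libraries. The sorafenib libraries stood far above the vehicle libraries, and the log2 fold change was 2.56 ± 0.18 (adjusted p = 1.66e-07). The list of hypoxia-inducible genes, in which ANGPTL4 itself is counted, had 9 of 19 tested genes up and none down, with a median of 0.36. With any 1 library left out 7 to 10 rose. CA9, a surface carbonic anhydrase, had 10.9, 7.71 and 8.14 CPM in the sorafenib libraries and 2.78, 2.53 and 4.29 CPM in the vehicle libraries (1.47 ± 0.30, adjusted p = 0.00554). STC2, a secreted stanniocalcin, had 185, 189 and 206 CPM in the sorafenib libraries and 108, 118 and 129 CPM in the vehicle libraries (0.70 ± 0.10, adjusted p = 0.000498), and P4HA2, a prolyl hydroxylase of collagen, rose by 0.57 ± 0.10. VEGFA, the endothelial growth factor, was higher in every sorafenib library but was not called (0.28 ± 0.12, adjusted p = 0.15). In the PPAR target list 2 of 15 genes rose, ANGPTL4 and the acyl-CoA synthetase ACSL5 (0.51 ± 0.09), and none fell. The share that rose was 13.3%, beside 5.92% of all tested genes. Glycolysis had 7 rises and 2 falls among 22 genes, with a median of 0.28, and 3 rises and 3 falls after scaling by library size alone. PFKFB4, which makes the activator of phosphofructokinase, had 0.70 ± 0.16 and the lactate exporter SLC16A3 0.47 ± 0.11, whereas the hexokinase HK2 fell by 0.46 ± 0.14. The call of HK2 ended when any one of the vehicle libraries, or sorafenib replicate 2 or 3, was left out (adjusted p up to 0.128). The number that rose was 1 without sorafenib replicate 2 or without vehicle replicate 3, and 3 without sorafenib replicate 3 or vehicle replicate 1.

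Liver-type secreted proteins were among the largest falls. All 3 fibrinogen chains, the subunits of the clotting protein, fell, and they lie side by side on chromosome 4. Their promoters are shown because the 3 neighbouring genes moved together and because the core CTGGGA of the element through which interleukin 6 and STAT3 act on acute phase genes was looked for on both strands. The lines give RefSeq promoters in GRCh38.p14, from 250 bases before to 50 after the start site, 5′ to 3′ on the strand of the gene, with each CTGGGA, or its reverse complement, in capitals.
FGA (chr4:154590693-154590992, minus strand): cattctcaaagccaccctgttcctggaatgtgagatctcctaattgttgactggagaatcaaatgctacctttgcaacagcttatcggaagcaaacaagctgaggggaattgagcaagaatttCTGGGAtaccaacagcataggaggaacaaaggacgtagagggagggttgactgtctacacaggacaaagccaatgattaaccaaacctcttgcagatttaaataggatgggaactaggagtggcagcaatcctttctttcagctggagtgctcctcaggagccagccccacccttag
FGB (chr4:154562730-154563029, plus strand): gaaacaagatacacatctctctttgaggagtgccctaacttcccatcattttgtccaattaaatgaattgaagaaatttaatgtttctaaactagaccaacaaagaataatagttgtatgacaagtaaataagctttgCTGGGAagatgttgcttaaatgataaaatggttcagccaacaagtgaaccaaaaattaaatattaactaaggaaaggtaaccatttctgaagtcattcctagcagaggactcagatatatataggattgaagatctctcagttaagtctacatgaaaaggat
FGG (chr4:154612607-154612906, minus strand): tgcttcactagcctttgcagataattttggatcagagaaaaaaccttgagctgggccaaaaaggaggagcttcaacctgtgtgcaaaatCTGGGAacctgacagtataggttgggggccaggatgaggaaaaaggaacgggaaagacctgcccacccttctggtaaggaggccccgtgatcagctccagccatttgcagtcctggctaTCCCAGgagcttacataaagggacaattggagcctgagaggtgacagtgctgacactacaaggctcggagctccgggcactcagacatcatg
Each promoter holds the core once on the strand of the gene, 127 bases before the start site in FGA, 112 before in FGB and 161 before in FGG, and FGG holds it once more on the opposite strand. The longer CTGGGAA is present in FGB and FGG. Of 35116 RefSeq promoters, 33.3% hold the core and 10.8% the longer form on either strand, so a match is common and describes the letters only.

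FGA, the alpha chain (ENSG00000171560, chr4:154583126-154590766, minus strand), had 10.8, 15.5 and 15.04 CPM in the sorafenib libraries and 56.9, 70.04 and 56.6 CPM in the vehicle libraries. FGB, the beta chain (ENSG00000171564, chr4:154562956-154571086, plus strand), had 32.98, 33.7 and 31.6 CPM in the sorafenib libraries and 100.3, 130.2 and 116 CPM in the vehicle libraries. FGG, the gamma chain (ENSG00000171557, chr4:154604134-154612967, minus strand), had 82.8, 137 and 157 CPM in the sorafenib libraries and 266, 489 and 372 CPM in the vehicle libraries. For each chain the highest sorafenib library lay below the lowest vehicle library, and FGG varied most within the groups. The log2 fold changes were -2.15 ± 0.16 (adjusted p = 2.45e-07) for FGA, -1.82 ± 0.14 (adjusted p = 5.01e-07) for FGB and -1.58 ± 0.26 (adjusted p = 0.00342) for FGG. In the acute phase list 5 of 12 tested genes fell and none rose, with a median of -0.80 and every tested member below 0. The other 2 were the serum amyloid genes SAA1, with 4.35, 3.74 and 3.63 CPM in the sorafenib libraries and 9.63, 8.43 and 8.35 CPM in the vehicle libraries (-1.17 ± 0.25, adjusted p = 0.00791), and SAA2, which are near-identical copies, so that the split of reads between them is uncertain. The call of SAA1 ended without sorafenib replicate 2 (adjusted p = 0.0528). With any 1 library left out 4 to 5 of these genes fell.

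Complement and the receptor for interleukin 6 were lower too. Of 19 tested complement genes 7 fell and 1 rose, with a median of -0.30. C5, the precursor of the membrane attack complex, had 5.61, 5.79 and 6.17 CPM in the sorafenib libraries and 12.8, 11.6 and 11.9 CPM in the vehicle libraries. The replicates were tight and the log2 fold change was -1.05 ± 0.16 (adjusted p = 0.000664). C1RL, a C1r-like protease, had 64.2, 57.9 and 56.7 CPM in the sorafenib libraries and 98.8, 86.9 and 85.3 CPM in the vehicle libraries (-0.60 ± 0.10, adjusted p = 0.00121). C4A had 3.496, 4.48 and 4.65 CPM in the sorafenib libraries and 16.3, 13.7 and 14.8 CPM in the vehicle libraries (-1.82 ± 0.21, adjusted p = 4.49e-05) and its neighbouring near-identical copy C4B had 1.98, 9.62 and 1.82 CPM in the sorafenib libraries and 17.04, 14.6 and 15.8 CPM in the vehicle libraries (-1.76 ± 0.46, adjusted p = 0.0297). Reads cannot be assigned to either with certainty. Sorafenib replicate 2 stood apart for C4B, whose call ended without vehicle replicate 1 or 3 or sorafenib replicate 1 or 3 (adjusted p up to 0.142). The member that rose was CD55, which protects cells from complement (0.55 ± 0.11, adjusted p = 0.00463). Complement falls numbered 4 without sorafenib replicate 2 and 5 to 7 without any other library. IL6R, the receptor chain that binds interleukin 6, had 13.5, 14.01 and 16.4 CPM in the sorafenib libraries and 33.02, 29.9 and 32.2 CPM in the vehicle libraries, lower in every sorafenib library (-1.12 ± 0.12, adjusted p = 2.12e-05). Further down that pathway SOCS3, its feedback inhibitor, fell by 0.76 ± 0.21 and the transcription factor STAT3 fell by 0.37 ± 0.10, while the kinase JAK2 rose by 0.54 ± 0.16. In total 3 of 16 genes of the list fell and 1 rose (median -0.27). With 1 library left out, 1 to 3 fell and 0 to 1 rose: IL6R kept its call throughout, and the calls of SOCS3, STAT3 and JAK2 ended without 4, 4 and 5 of the libraries in turn, vehicle replicate 1 and sorafenib replicate 2 among them for each gene (adjusted p up to 0.131, 0.0861 and 0.203).

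Hepatocyte markers, which include FGB, were summed as well. The 10 markers of that list summed to 38.7 to 41.0 CPM in sorafenib libraries and 113 to 140 CPM in vehicle libraries. Most of each sum was FGB, itself a member of the lists above. Of 6 tested, 2 fell (FGB and CYP3A4) and none rose, and APOA1, APOA2 and TTR had no count in any of the 6 libraries. ALB was at or under 0.432 CPM in each library. The part of a hepatocyte-like cell fraction in these falls was not tested. HNF4A, a liver and gut transcription factor, was lower in every sorafenib library but was not called (-0.61 ± 0.21, adjusted p = 0.0702). Of 14 tested hepatic and biliary lineage factors 1 rose, GATA6 (0.42 ± 0.12), and none fell. That share, 7.14%, lay near the 5.92% of all tested genes that rose. The call of GATA6 ended without any 1 library other than vehicle replicate 2 (adjusted p up to 0.134).

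Some enzymes and pumps that handle foreign compounds fell. In the xenobiotic list 6 of 21 tested genes fell and 2 rose, with a median of -0.34. The falls numbered 4 without sorafenib replicate 2 and 5 to 6 when another library was left out, and the rises 2 without sorafenib replicate 1, 0 without vehicle replicate 3 and 1 otherwise. ALDH3A1, an aldehyde dehydrogenase, had 63.3, 60.6 and 65.2 CPM in the sorafenib libraries and 162, 132 and 154 CPM in the vehicle libraries with wide separation of the groups (-1.25 ± 0.14, adjusted p = 4.49e-05). CYP3A5, a drug-oxidising P450 that metabolises many medicines, had 37.6, 29.4 and 23.2 CPM in the sorafenib libraries and 66.8, 53.7 and 54.9 CPM in the vehicle libraries (-0.96 ± 0.16, adjusted p = 0.0013). CYP4F3, which hydroxylates leukotrienes and fatty acids, had 18.3, 19.2 and 16.9 CPM in the sorafenib libraries and 44.4, 39.1 and 38.2 CPM in the vehicle libraries (-1.16 ± 0.15, adjusted p = 0.000141), and its paralog CYP4F8, named by rank, had 33.2, 28.9 and 27.5 CPM in the sorafenib libraries and 92.8, 76.6 and 72.2 CPM in the vehicle libraries (-1.43 ± 0.15, adjusted p = 1.68e-05). Genes of the CYP4F family are similar in sequence, so reads may be split between copies. CYP3A4 was near the limit of detection, at 0.198 CPM or less with sorafenib and 1.39 to 1.49 CPM with vehicle (-3.31 ± 0.52, adjusted p = 0.000818). Among transporters ABCC2, which exports conjugates into bile, had 417, 362 and 336 CPM in the sorafenib libraries and 665, 609.7 and 707 CPM in the vehicle libraries (-0.83 ± 0.15, adjusted p = 0.00289) and ABCC5 fell by 0.49 ± 0.11, while ABCG2, an exporter of many drugs, rose by 0.75 ± 0.20. Those were the 3 calls among 12 tested transporters, and that of ABCG2 ended without vehicle replicate 1, sorafenib replicate 2 or sorafenib replicate 3 (adjusted p up to 0.117).

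TXNIP, which holds back glucose uptake and thioredoxin, fell along with related sugar-sensing genes. TXNIP (ENSG00000265972, chr1:145992435-145996600, minus strand) had 17.7, 23.6 and 17.9 CPM in the sorafenib libraries and 45.7, 66.1 and 41.3 CPM in the vehicle libraries, without overlap, and a log2 fold change of -1.36 ± 0.23 (adjusted p = 0.00315). MLXIPL, which encodes the glucose-responsive factor ChREBP, had 20.2, 15.6 and 13.9 CPM in the sorafenib libraries and 36.5, 27.7 and 32.3 CPM in the vehicle libraries (-0.96 ± 0.18, adjusted p = 0.00342). MLXIP, which encodes its relative MondoA, fell by 0.45 ± 0.10 and the arrestin ARRDC3 fell by 0.50 ± 0.15. In total 4 of 7 tested members fell and none rose (median -0.45), with 2 falls without vehicle replicate 1 or sorafenib replicate 2 and 3 to 4 without any other library. TXNIP and MLXIPL kept their calls throughout, that of MLXIP ended without either of those libraries (adjusted p up to 0.0589), and that of ARRDC3 ended without any 1 library. ARRDC4, another MondoA target, was lower in every sorafenib library and was not called (-0.41 ± 0.16, adjusted p = 0.108). MondoA and ChREBP bind DNA at pairs of E-box-like sites. The TXNIP promoter holds no full CACGTG, and it holds 2 CACG cores in tandem 7 bases apart, of which the first begins 88 bases before the start site. This stretch is printed to show that arrangement (RefSeq, GRCh38.p14, the strand of the gene, CACG in capitals).
TXNIP (chr1:145996633-145996687, minus strand): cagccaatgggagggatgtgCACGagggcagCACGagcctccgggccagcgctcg
CACG on either strand is found in 67.0% of RefSeq promoters, CACGTG in 7.26% and such a tandem pair in 0.609%. The spacing was noticed in this promoter and then counted. The ARRDC4 promoter holds CACGTG.

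Transcripts of large housekeeping complexes shifted up by small amounts. Nuclear genes for complex I of the respiratory chain rose for 16 of 37 tested members and fell for none (median 0.34). Complexes II to IV with cytochrome c had 15 of 25 up (median 0.42) and ATP synthase 4 of 18 (median 0.31). COX7A2, a cytochrome oxidase subunit, had 148, 145 and 156 CPM in the sorafenib libraries and 71.4, 91.3 and 79.1 CPM in the vehicle libraries and rose by 0.89 ± 0.11 (adjusted p = 0.00015). NDUFA4, a cytochrome oxidase-associated subunit, had 254, 267 and 299.5 CPM in the sorafenib libraries and 153, 183 and 172 CPM in the vehicle libraries (0.69 ± 0.11, adjusted p = 0.0011), and the electron carrier CYCS had 406, 376 and 401 CPM in the sorafenib libraries and 209.8, 272 and 258 CPM in the vehicle libraries (0.68 ± 0.11, adjusted p = 0.0013). Among complex I subunits NDUFB7 rose by 0.54 ± 0.11 and NDUFA8 by 0.43 ± 0.09, a call that NDUFA8 lost without vehicle replicate 3 (adjusted p = 0.0503). The mitochondrial ribosome had 27 of 76 genes up (median 0.32), the cytosolic ribosome 35 of 79 (median 0.32), the proteasome 13 of 31 (median 0.33) and the spliceosome core 10 of 28 (median 0.29), and no gene of these 4 lists fell. RPL27, a protein of the large ribosomal subunit, had 456, 467 and 527 CPM in the sorafenib libraries and 294, 323 and 321 CPM in the vehicle libraries (0.63 ± 0.10, adjusted p = 0.00116). PSMB3, a subunit of the proteasome core, had 478, 398 and 361 CPM in the sorafenib libraries and 282, 253 and 257 CPM in the vehicle libraries (0.64 ± 0.11, adjusted p = 0.00152). Many ribosomal protein genes have processed pseudogenes that could take a part of their reads.

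mRNAs made from mitochondrial DNA did not follow the nuclear genes: none of the 13 was called in either direction, and their median was -0.11. Mitochondrially encoded genes took 11.1% ± 1.89 of counts with sorafenib and 12.2% ± 1.26 with vehicle (SD, n = 3 each). Single libraries had 13.1%, 10.8% and 9.39% with sorafenib and 13.6%, 11.1% and 11.9% with vehicle, so the groups overlapped (exact permutation p = 0.4, two-sided; 0.1 is the smallest this design allows). Nucleolar ribosome assembly factors had no call among 20 genes (median -0.09).

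Rises were more frequent among short transcripts, and many genes of the large complexes are short. Over 13970 protein-coding genes with a length in GENCODE 29, cut into 5 bins of equal size by length, 14.5% of the shortest bin (171 to 2122 nt, longest transcript) rose and 2.18% fell. In the longest bin (5912 to 109224 nt) 4.97% rose and 7.41% fell. The median log2 fold change went down with each bin, 0.17, 0.07, 0.02, -0.03 and -0.05, and in the shortest bin all 3 sorafenib libraries were above all 3 vehicle libraries. The cytosolic ribosome had 49 of its 79 genes in the shortest bin, complex I 25 of 37, the mitochondrial ribosome 48 of 76 and the proteasome 14 of 31. In that bin 24, 10, 15 and 8 of these genes rose, in the same order. Outside the shortest bin 11 of 30 cytosolic ribosome genes rose, 6 of 12 of complex I, 12 of 28 of the mitochondrial ribosome and 5 of 17 of the proteasome. Of all protein-coding genes in the other bins, 4.97% to 8.36% per bin rose. With an offset for transcript length in the fit, chosen after seeing the data, the rises were 18 (cytosolic ribosome), 12 (complex I, with 1 fall), 11 (complexes II to IV), 19 (mitochondrial ribosome, with 1 fall), 9 (proteasome) and 8 (spliceosome). The list medians with that offset were 0.28, 0.25, 0.40, 0.25, 0.25 and 0.23 in the same order. With an offset for length and GC together the rises were 27, 16, 10, 22, 11 and 6, with 1 fall in complex I and 1 in the mitochondrial ribosome. The part of length in these rises was not tested further. Their counts also depended on single libraries: without sorafenib replicate 2 the rises were 8 for the cytosolic ribosome, 3 for complex I, 6 for complexes II to IV, 6 for the mitochondrial ribosome, 3 for the proteasome and 5 for the spliceosome. Without vehicle replicate 3 they were 9, 6, 9, 7, 4 and 5 in that order, without vehicle replicate 1 they were 12, 5, 9, 11, 5 and 6, and without sorafenib replicate 3 they were 18, 12, 11, 18, 6 and 6. After scaling by library size alone they were 19, 9, 10, 9, 5 and 6 in the same order. ATP synthase had 2 rises without vehicle replicate 1, without sorafenib replicate 2 and after scaling by library size alone.

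**Figure D2:**
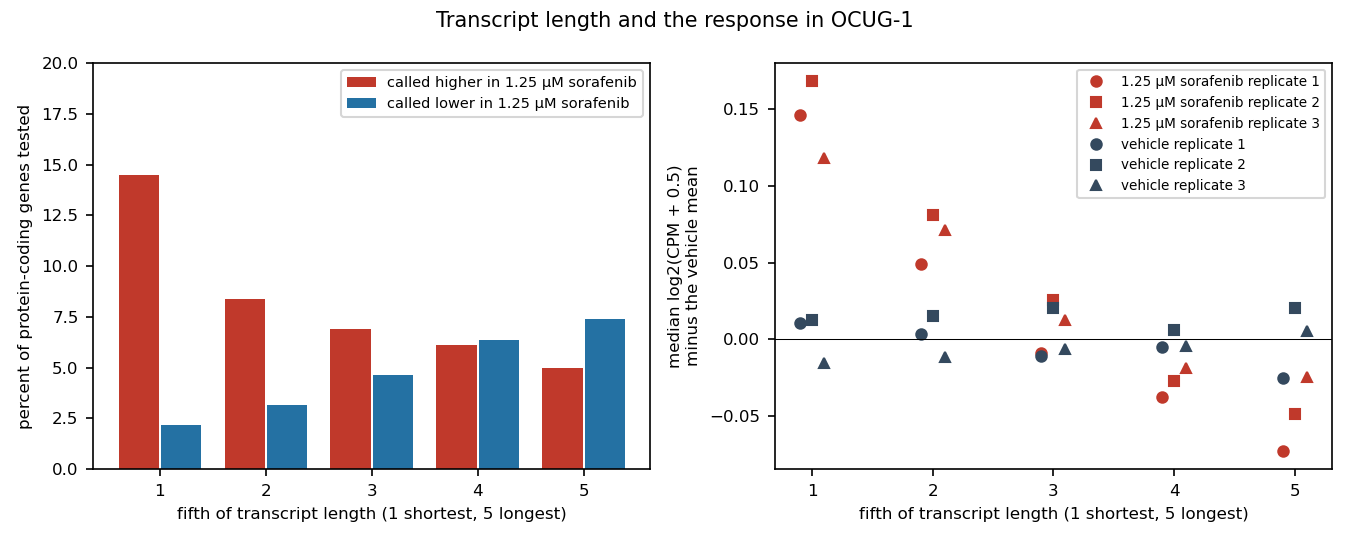
Left, percent of tested protein-coding genes called higher (red) and lower (blue) in 1.25 µM sorafenib than in vehicle, in 5 bins of transcript length from 1 (shortest) to 5 (longest). Right, the median over genes of log2(CPM + 0.5) minus the vehicle mean in each library, with sorafenib in red and vehicle in dark. The share called higher was 14.5% in the shortest and 4.97% in the longest bin, and the sorafenib libraries stood above the vehicle libraries in bins 1 and 2.

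Several classes of genes that do not code for protein had few rises and a lower median. Of 1566 tested antisense genes 0.958% rose and 4.28% fell, of 1370 lincRNAs 1.75% rose and 4.53% fell, and of 2177 identifiers that are not in GENCODE 29, 0.459% rose and 4.09% fell. Of 13970 protein-coding genes 8.17% rose and 4.75% fell, so that the shares that fell were alike and the shares that rose were not. Levels of expression were not matched between the classes, and whether a gene is called depends on its count. The median log2 fold changes were -0.28, -0.21 and -0.28 in those classes and 0.03 in protein-coding genes. Processed pseudogenes (505 tested) had 2.57% up and 2.18% down, with a median of 0.05. The sorafenib libraries had a count in 29634, 31788 and 30236 identifiers and the vehicle libraries in 32260, 32273 and 32726. Use of strand in the counting: not given in the sources used here. Whether reads of an antisense gene and of its partner were told apart is therefore not known.

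Lipid and secretory pathway genes rose in part. Cholesterol synthesis had 10 of 24 genes up and none down, with a median of 0.44. SQLE, the squalene epoxidase, had 369.5, 334 and 338 CPM in the sorafenib libraries and 221, 250.1 and 225 CPM in the vehicle libraries (0.58 ± 0.12, adjusted p = 0.0068). NSDHL, a later enzyme of the pathway, had 54.95, 70.8 and 69.5 CPM in the sorafenib libraries and 35.1, 44.4 and 44.8 CPM in the vehicle libraries (0.65 ± 0.13, adjusted p = 0.00434), and SC5D rose by 0.66 ± 0.13. Fatty acid synthesis had 5 of 14 up (median 0.40), with the elongase ELOVL6 at 0.51 ± 0.10 (adjusted p = 0.00337) and the citrate lyase ACLY at 0.44 ± 0.10 (adjusted p = 0.00774). Chaperones of the endoplasmic reticulum rose for 7 of 20 members with none down (median 0.42). Their main member HSPA5, also known as BiP, had 1150.0, 1253 and 1365 CPM in the sorafenib libraries and 644, 764 and 755 CPM in the vehicle libraries and rose by 0.80 ± 0.15 (adjusted p = 0.00344), and SDF2L1, a partner of it, rose by 0.65 ± 0.12 (adjusted p = 0.0024). The cholesterol count was 3 without sorafenib replicate 2 or vehicle replicate 3, and 6 without vehicle replicate 1. That of fatty acid synthesis was 2 without each of these and without sorafenib replicate 3. The chaperone count was 2 to 3 without sorafenib replicate 2, sorafenib replicate 3, vehicle replicate 1 or vehicle replicate 3.

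Stress pathways beyond that showed no common direction. The integrated stress response list had 7 of 33 genes up and 1 down, with a median of 0.09. TRIB3, a pseudokinase induced by ATF4, had 92.6, 96.96 and 107 CPM in the sorafenib libraries and 66.7, 60.1 and 61.8 CPM in the vehicle libraries (0.65 ± 0.12, adjusted p = 0.0035), whereas SLC7A11, the cystine importer, had 39.7, 48.1 and 52.4 CPM in the sorafenib libraries and 62.3, 78.5 and 83.3 CPM in the vehicle libraries and fell (-0.68 ± 0.13, adjusted p = 0.00321). The regulators themselves were not called: ATF4 at -0.08 ± 0.12, DDIT3 (CHOP) at -0.42 ± 0.14 (adjusted p = 0.0535) and the secreted factor GDF15 at 0.36 ± 0.12 (adjusted p = 0.0612). Without sorafenib replicate 2 or 3 or vehicle replicate 1, 4 of the list rose. After scaling by library size alone 5 rose and 3 fell. In the cytosolic heat-shock list the near-identical genes HSPA1A and HSPA1B fell (HSPA1B 75.6, 92.9 and 91.2 CPM with sorafenib and 163, 168 and 170.1 CPM with vehicle; -0.95 ± 0.19, adjusted p = 0.00592) and HSP90AA1 rose by 0.50 ± 0.14, out of 15. The call of HSPA1A ended without any 1 library (adjusted p up to 0.105) and that of HSP90AA1 without vehicle replicate 1 or 3 or sorafenib replicate 2 or 3 (adjusted p up to 0.132). Metallothionein MT2A, which binds zinc and copper, had 144, 128 and 115 CPM in the sorafenib libraries and 66.9, 71.6 and 69.8 CPM in the vehicle libraries (0.90 ± 0.14, adjusted p = 0.00066). It was 1 of 4 rises among 13 tested genes of iron and metallothionein biology. Of 17 NRF2 targets 2 fell, of 26 interferon genes 2 rose and 1 fell, and of 17 p53 targets 1 rose and 2 fell. The shares up and down were 0% and 11.8%, 7.69% and 3.85%, and 5.88% and 11.8% in that order. Over all tested genes they were 5.92% and 4.61%. With 1 library left out, 1 to 2 NRF2 targets fell and 0 to 1 rose, 2 to 3 interferon genes rose and 0 to 1 fell, and no p53 target was called when vehicle replicate 1, 2 or 3 or sorafenib replicate 2 or 3 was the one left out.

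Proliferation genes were called at shares of 0% higher and 9.52% lower in the mitosis list, and 4.55% and 0% in the DNA replication list. Over all tested genes the shares were 5.92% and 4.61%. In the mitosis list 2 of 21 genes fell, KIF20A, a kinesin of cytokinesis (152, 129 and 113 CPM in the sorafenib libraries and 235, 203 and 184 CPM in the vehicle libraries; -0.66 ± 0.14, adjusted p = 0.00755), and CENPE, a kinetochore motor (-0.39 ± 0.11, adjusted p = 0.0271), and none rose. In the DNA replication list 1 of 22 rose, the origin-licensing factor CDC6 (0.41 ± 0.12, adjusted p = 0.0406), and none fell. The medians were -0.06 and 0.07, that of DNA replication -0.02 after scaling by library size alone. The call of CENPE ended without vehicle replicate 1 or 3 or sorafenib replicate 2 or 3 (adjusted p up to 0.115), and that of CDC6 without any library other than sorafenib replicate 3 (adjusted p up to 0.152). The proliferation marker MKI67 had 219.7, 195 and 181 CPM in the sorafenib libraries and 249.6, 229 and 215 CPM in the vehicle libraries, which overlapped (-0.22 ± 0.10, adjusted p = 0.158).

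**Figure D3:**
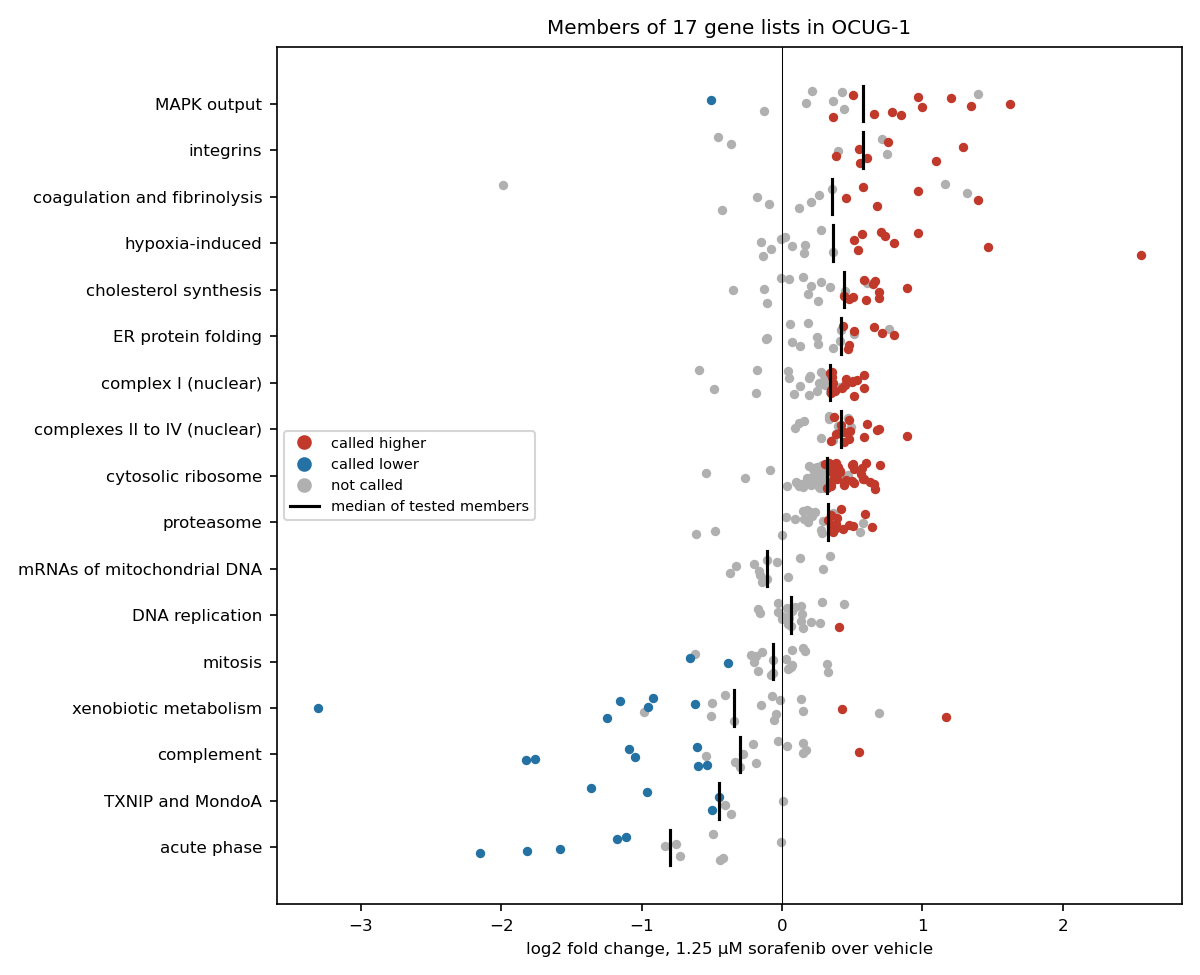
Log2 fold change (horizontal axis, 1.25 µM sorafenib over vehicle) of the tested members of 17 gene lists, 1 point per gene, red where called higher, blue where called lower and grey where not called. The black line is the median of the list. Of the MAPK output list 10 of 18 members are red, of the integrins 7 of 12, and the acute phase list lies below 0 throughout.

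Epithelial genes moved both ways. KRT17, a keratin of stressed and basal epithelium, fell, with 5.94, 5.56 and 4.07 CPM in the sorafenib libraries and 13.7, 13.4 and 13.3 CPM in the vehicle libraries (-1.37 ± 0.18, adjusted p = 0.000141), while KRT80, with 24.7, 26.4 and 36.1 CPM in the sorafenib libraries and 12.3, 13.9 and 20.4 CPM in the vehicle libraries, rose (0.90 ± 0.18, adjusted p = 0.00561). KRT19, a marker of bile duct cells, had 968, 862 and 845 CPM in the sorafenib libraries and 685, 608 and 597 CPM in the vehicle libraries (0.50 ± 0.12, adjusted p = 0.0116). The list of biliary epithelial markers went both ways, with 3 rises and 2 falls among 14 (1 to 3 and 0 to 2 with any 1 library left out). Of 8 tested keratins 3 rose and 1 fell. Tight junction genes had 3 rises and 1 fall among 19, with the pore-forming claudin CLDN2 at 24.1, 22.04 and 21.4 CPM in the sorafenib libraries and 12.5, 10.8 and 10.02 CPM in the vehicle libraries (1.02 ± 0.16, adjusted p = 0.000824). CLDN2 kept its call whichever library was left out. Without vehicle replicate 1 or 3 or sorafenib replicate 2 or 3 it was the only call of the list, and the calls of CLDN3, CLDN4 and CLDN15 ended. The mucin MUC1 fell by 0.61 ± 0.16, and MUC16 fell at a low level (0.132, 0.234 and 0.218 CPM with sorafenib and 1.05, 1.87 and 1.67 CPM with vehicle). The call of KRT19 ended without vehicle replicate 3 (adjusted p = 0.064), that of MUC1 without any vehicle library or sorafenib replicate 2, and that of MUC16 without vehicle replicate 3 or sorafenib replicate 2 or 3 (adjusted p up to 0.106 and 0.0724).

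Among the remaining genes named by rank, PRSS2, an anionic trypsinogen, had 27.1, 24.7 and 19.2 CPM in the sorafenib libraries and 5.43, 3.55 and 6.201 CPM in the vehicle libraries, a rise of 2.22 ± 0.21 (adjusted p = 4.24e-06), with the reservation that trypsinogen copies share sequence. SEMA7A, a membrane-anchored semaphorin that binds integrins, had 15.1, 15.1 and 15.6 CPM in the sorafenib libraries and 5.18, 5.299 and 6.08 CPM in the vehicle libraries (1.47 ± 0.13, adjusted p = 1.58e-06). TGM2, the tissue transglutaminase, had 13.98, 15.2 and 14.9 CPM in the sorafenib libraries and 5.31, 5.36 and 6.56 CPM in the vehicle libraries (1.36 ± 0.17, adjusted p = 0.000101). RASSF10, MYEOV and ATP6V0D2, a subunit of the vacuolar proton pump, rose by 1.47 ± 0.25, 1.42 ± 0.21 and 1.41 ± 0.19. On the side of the falls, H2BC21, a histone gene with a polyadenylated transcript, had 2.84, 4.81 and 1.24 CPM in the sorafenib libraries and 13.3, 14.4 and 9.12 CPM in the vehicle libraries (-1.99 ± 0.41, adjusted p = 0.00945). EID3, a relative of a subunit of the SMC5/6 complex, had 11.7, 12.9 and 11.6 CPM in the sorafenib libraries and 30.4, 33.3 and 34.6 CPM in the vehicle libraries (-1.44 ± 0.15, adjusted p = 1.94e-05). FDCSP, a small secreted protein, and SLC25A34, a mitochondrial carrier, had -1.39 ± 0.27 and -1.33 ± 0.19. None of these genes overlapped between the groups.

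The direct comparison of 10 µM with 1.25 µM sorafenib asked which of the named low-dose values differed at the higher dose. It shares the 1.25 µM libraries with the comparison above, so values stand side by side and no overlap of the 2 comparisons is counted. At 10 µM, 31.6% of 20511 tested genes were higher and 29.0% lower than at 1.25 µM. ANGPTL4 was at 3.74 ± 0.371 CPM with vehicle, 22.1 ± 3.98 CPM at 1.25 µM and 138 ± 26.2 CPM at 10 µM (means ± SD, n = 3 each, here and in what follows), a log2 change between the doses of 2.64 ± 0.15 (adjusted p = 1.17e-10). MMP1 was at 201 ± 39.5, 673 ± 116 and 1732 ± 106 CPM in the same order (1.36 ± 0.16, adjusted p = 1.28e-06). ETV5 was at 14.3 ± 1.02, 44.1 ± 5.24 and 75.02 ± 2.36 CPM (0.77 ± 0.10, adjusted p = 4.95e-06). For these genes the level was higher again at the higher dose. ETV4, at 14.6 ± 0.854, 37.3 ± 3.02 and 29.3 ± 3.77 CPM, was lower at 10 µM than at 1.25 µM (-0.35 ± 0.11, adjusted p = 0.0127), a call that ended after scaling by library size alone, which moved the median of all genes by 0.121 between the doses, with an offset for transcript length and GC, and without sorafenib 1.25 µM replicate 1. PRSS2, at 5.06 ± 1.36, 23.6 ± 4.06 and 0.999 ± 0.0942 CPM, and CA9, at 3.2 ± 0.955, 8.91 ± 1.72 and 0.4702 ± 0.266 CPM, peaked at the low dose (-4.57 ± 0.25, adjusted p = 7.88e-11, for PRSS2, and -4.27 ± 0.37, adjusted p = 2.12e-08, for CA9).

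Among the genes lower at 1.25 µM, the fibrinogens were lower again at 10 µM. FGA was at 61.2 ± 7.67, 13.8 ± 2.62 and 1.25 ± 0.287 CPM with vehicle, 1.25 µM and 10 µM (-3.46 ± 0.20, adjusted p = 1.84e-10), and FGB at 116 ± 14.96, 32.8 ± 1.08 and 5.26 ± 0.536 CPM (-2.64 ± 0.16, adjusted p = 2.78e-10). CYP4F8 was at 80.5 ± 10.9, 29.9 ± 2.97 and 0.453 ± 0.199 CPM (-6.03 ± 0.24, adjusted p = 1.88e-12). TXNIP and IL6R had their lowest mean at 1.25 µM. TXNIP was at 51.02 ± 13.3, 19.7 ± 3.34 and 35.5 ± 10.8 CPM (0.84 ± 0.23, adjusted p = 0.00611) and IL6R at 31.7 ± 1.64, 14.6 ± 1.53 and 31.3 ± 2.85 CPM (1.10 ± 0.12, adjusted p = 2.79e-07). HSPA1B was at 167 ± 3.65, 86.5 ± 9.53 and 734 ± 235 CPM (3.08 ± 0.20, adjusted p = 3.43e-09). Several lists differed between the doses for most of their members: 21 of 21 mitosis genes and all 13 mitochondrially encoded mRNAs were lower at 10 µM than at 1.25 µM (medians -1.50 and -1.60), and 28 of 33 integrated stress response genes and 15 of 15 heat-shock genes were higher (medians 1.31 and 2.12). Cholesterol genes were lower for 17 of 24 and higher for 3 (median -1.22).

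**Figure D4:**
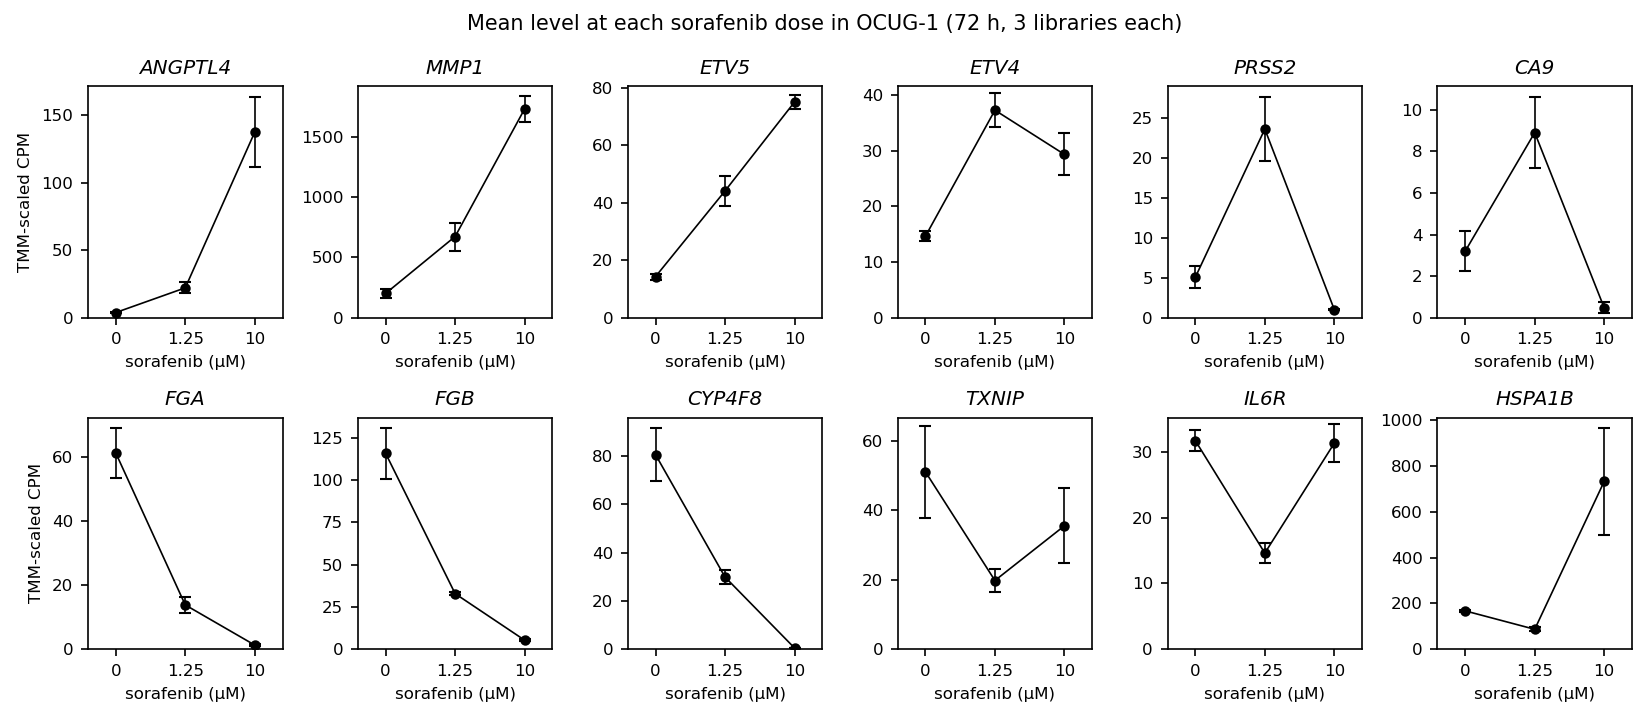
Mean TMM-scaled CPM ± SD (vertical axis, from 0, n = 3 libraries) of 12 genes at 0 (vehicle), 1.25 and 10 µM sorafenib in OCUG-1. The doses are spaced evenly and not to scale. ANGPTL4, MMP1 and ETV5 climbed with each dose, PRSS2 and CA9 peaked at 1.25 µM, FGA, FGB and CYP4F8 fell with each dose, and TXNIP and IL6R were lowest at 1.25 µM.

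A last comparison asked where the low-dose response of OCUG-1 differed from that of HuCCT1, by an interaction test over all 24 libraries. Of 22944 genes tested, the log2 response was higher in OCUG-1 for 4.96% and lower for 4.69%, 2214 genes in all. Without 1 library the number was 1209 and 1268 (HuCCT1 sorafenib replicates 1 and 2), 3385 (HuCCT1 sorafenib replicate 3), 1461 (HuCCT1 vehicle replicate 3), 1388 and 1286 (OCUG-1 sorafenib replicates 2 and 3), 1275 and 1472 (OCUG-1 vehicle replicates 1 and 3), and within 1.5 times of 2214 for the others. The MAPK output list differed: 9 of 18 genes had the higher response in OCUG-1 and 1 the lower, and the list medians were 0.58 in OCUG-1 and -0.01 in HuCCT1. ETV5 had 1.63 ± 0.11 in OCUG-1 and -0.38 ± 0.17 in HuCCT1, a difference of 2.04 ± 0.21 (adjusted p = 9.04e-07). PHLDA1 differed by 1.36 ± 0.15 (adjusted p = 1.09e-06) and ETV4 by 1.51 ± 0.16 (adjusted p = 9.04e-07). DUSP6 rose in both lines, 0.79 ± 0.18 in OCUG-1 and 0.78 ± 0.17 in HuCCT1, and the difference was not called (0.04 ± 0.26, adjusted p = 0.966). Integrins had the higher response in OCUG-1 for 7 of 12 members, with medians of 0.58 and -0.34 (OCUG-1 and HuCCT1), and ITGB3 differed by 3.04 ± 0.40 (adjusted p = 2.15e-05). Cytosolic ribosome genes had it for 29 of 79, with medians of 0.32 and 0.04, and the integrated stress response for 11 of 33, with medians of 0.09 and -0.45.

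Proliferation genes showed the opposite difference. Of 21 mitosis genes 17 had the lower response in OCUG-1, and of 22 DNA replication genes 17, with no gene the other way. Median log2 fold changes were -0.06 in OCUG-1 and 0.96 in HuCCT1 for mitosis, and 0.07 and 0.96 for DNA replication. KIF20A had -0.66 ± 0.14 in OCUG-1 and 1.43 ± 0.33 in HuCCT1 (-2.06 ± 0.39, adjusted p = 0.00301). The complement component C5 (-1.31 ± 0.23, adjusted p = 0.000568) and ALDH3A1 (-2.06 ± 0.35, adjusted p = 0.000519) also had the lower response in OCUG-1. Counts for other groups stand beside 4.96% higher and 4.69% lower over all genes tested. On simulated counts with few changed genes the test called 8.21% of those that differed 1.5-fold, so low counts do not show like responses. For the nuclear genes of complex I, 2 of 37 differed in each direction, for ATP synthase 0 of 18, for cholesterol 1 of 24 and for glycolysis 3 of 22. MYC and TXNIP, lower in both lines, had differences of 0.21 ± 0.25 (adjusted p = 0.65) and 0.77 ± 0.32 (adjusted p = 0.136), which does not show that the lines responded alike. HuCCT1 expressed FGA and FGB too little for its own test.

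**Figure D5:**
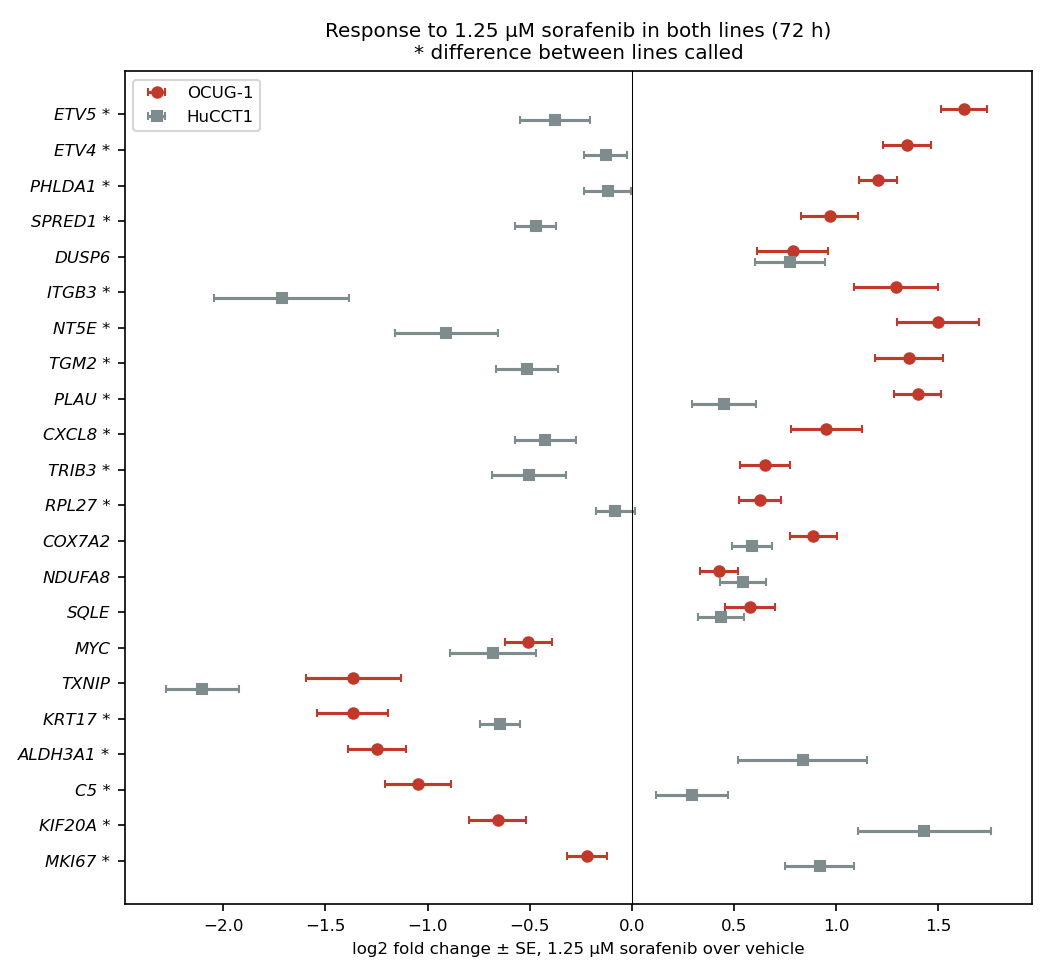
Log2 fold change ± SE (horizontal axis, 1.25 µM sorafenib over vehicle) of 22 genes in OCUG-1 (red circles) and HuCCT1 (grey squares). An asterisk marks genes whose difference between the lines was called. ETV5, ETV4, PHLDA1 and SPRED1 lay above 0 in OCUG-1 and below 0 in HuCCT1, DUSP6 and COX7A2 lay above 0 in both, and KIF20A and MKI67 lay below 0 in OCUG-1 and above 0 in HuCCT1.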

How the data were processed

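RNA was extracted with TRIzol from independent biological replicates, and poly(A) libraries (TruSeq) were read as 150-bp paired ends on a NovaSeq, per the labels' protocols. The authors deposited raw gene counts, 1 whole number per gene identifier and library, for 78724 identifiers per line. Per the submitters' processing notes, the tools include fastp 1.3.2, HISAT2 2.2.2, featureCounts (Subread 2.1.1) and the build GRCh38. Gene annotation, strand setting and handling of reads with several matches: not given in the sources used here. The notes add that 4 OCUG-1 libraries had additional runs, treated as the same library. The depth is the total count per library, and no blank or summary row was present among the identifiers tested.

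The deposited counts were tested with edgeR 4.0.16 (limma 3.58.1, R 4.3.3): filterByExpr with a minimum count of 10, TMM scaling, glmQLFit with robust estimation and glmQLFTest. The main fit held all 12 OCUG-1 libraries, so that 4 groups share the count filter, the scaling and the estimate of spread (biological coefficient of variation 0.131). The difference between lines came from a fit of 24 libraries. Genes with a Benjamini-Hochberg adjusted p under 0.05 over all tested genes were called, and a standard error is the size of the log2 fold change divided by the root of F. CPM were TMM-scaled. On simulated counts the fit called 27.6%, 61.9% and 81.8% of genes changed 1.5-, 2- and 4-fold in OCUG-1 at the low dose, and 8.43% of its calls there were false. For the difference between lines it called 8.21%, 37.7% and 65.2%, with 5.75% false. The simulated counts held fewer changed genes than were called here, and every other gene had the same mean in all groups. These shares may therefore differ from those in the data.

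Genes are named by rank (the 12 largest rises and falls among called protein-coding genes whose groups do not overlap and whose higher group averages at least 10 CPM), as up to 4 members of each list by adjusted p, or from a panel of 38. The lists, panel and members were chosen with earlier results of these data known. Replicate numbers were not used as pairs. Alternatives were DESeq2 1.42.0, other scaling, filters, groups, a replicate block, offsets for transcript length and GC (chosen after seeing the data), and leaving out each library. Gene positions and lengths are from GENCODE 29, which holds 57302 of the identifiers, and promoters from RefSeq (GRCh38.p14). Some genes that the lists hold are not reported here.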

Additional observations from a re-analysis of the deposited data

Results flagged for a closer look

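There were 10 values that stood out because the response to 1.25 µM sorafenib differed between OCUG-1 and HuCCT1. They were the 5 largest differences each way among protein-coding genes called by the interaction test (edgeR's quasi-likelihood test, Benjamini-Hochberg adjustment over 22944 genes). A mean of at least 10 CPM was required in a group of either line only. The other line could be low, among others for TNFSF15, MUC16 and VEGFC in OCUG-1 and SMPX, GAL3ST1 and CD1D in HuCCT1. The size of such a difference is uncertain. Levels below are mean CPM ± SD (n = 3), sorafenib before vehicle.

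Higher response in OCUG-1 was seen for 5 genes. PRSS2, a trypsinogen, had 23.6 ± 4.06 CPM with sorafenib and 5.06 ± 1.36 CPM with vehicle in OCUG-1, and 8.74 ± 1.18 CPM with sorafenib and 13.9 ± 2.34 CPM with vehicle in HuCCT1, a log2 difference of 2.93 (adjusted p = 9.04e-07). TNFSF15, a cytokine of the TNF family, had 2.4 ± 0.2301 and 0.752 ± 0.472 CPM in OCUG-1 and 4.798 ± 0.4703 and 12.1 ± 0.452 CPM in HuCCT1 (3.04, adjusted p = 0.000136). ITGB3, an integrin beta chain, had 16.3 ± 3.31 and 6.61 ± 2.201 CPM in OCUG-1 and 1.77 ± 0.726 and 5.81 ± 2.19 CPM in HuCCT1 (3.04, adjusted p = 2.15e-05). CCDC33 had 19.8 ± 3.24 and 13.8 ± 2.71 CPM in OCUG-1 and 2.39 ± 0.703 and 9.98 ± 3.67 CPM in HuCCT1 (2.59, adjusted p = 1.16e-05). GAL3ST1, a sulfotransferase of glycolipids, had 15.6 ± 1.77 and 12.3 ± 1.01 CPM in OCUG-1 and was too low in HuCCT1 for a fit of that line alone (3.30, adjusted p = 0.0475). These calls held under the alternatives tried, except that of GAL3ST1, which ended under 10 of them.

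Lower response in OCUG-1 was seen for the other 5. SMPX, a small muscle protein, had 10.6 ± 1.83 and 22.9 ± 3.55 CPM in OCUG-1 and 1.11 ± 0.547 and 0.537 ± 0.228 CPM in HuCCT1 (-2.23, adjusted p = 0.00235). EID3 had 12.1 ± 0.725 and 32.8 ± 2.16 CPM in OCUG-1 and 13.3 ± 4.78 and 5.93 ± 3.58 CPM in HuCCT1 (-2.61, adjusted p = 0.000617). MUC16, the mucin that carries the CA125 antigen, had 0.195 ± 0.0547 and 1.53 ± 0.427 CPM in OCUG-1 and 72.8 ± 2.12 and 90.5 ± 5.91 CPM in HuCCT1 (-2.56, adjusted p = 0.00193). CD1D, a presenter of lipid antigens, had 19.6 ± 1.39 and 19.2 ± 0.871 CPM in OCUG-1 and was too low in HuCCT1 for a fit of that line alone (-2.95, adjusted p = 0.0421). VEGFC, a lymphatic growth factor, had no count in the 3 sorafenib libraries of OCUG-1 and 0.101 ± 0.0916 CPM with vehicle, and 89.02 ± 10.5 and 66.6 ± 5.14 CPM in HuCCT1. Its fitted difference of -4.52 (adjusted p = 0.0464) depends on the prior count and is not a measured size. The calls of SMPX, EID3 and MUC16 held under the alternatives tried, while that of CD1D ended under 10 and that of VEGFC under 14.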

How the results depend on the processing

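With 1 library left out in turn, the number of genes called for 1.25 µM sorafenib against vehicle ranged from 653 to 2558 (2160 with all libraries) and that for the difference between lines from 1209 to 3385 (2214 with all). These fits test fewer libraries. The log2 fold change of SPRY4 ranged from -0.0088 (without vehicle replicate 2, adjusted p = 0.981) to 0.5225, and that of ATF4 from -0.2123 to 0.0513 (without sorafenib replicate 3, adjusted p = 0.845), so that the sign of each changed. Neither gene was called with any 1 library left out, and the cause was not tested. No paired design is given by the labels. A fit with the replicate block called 1520 genes, 1515 of them called without it. Same-numbered libraries deviated from their group means with correlations of 0.244, 0.0503 and 0.0824, and differently numbered ones with -0.224 to 0.156. These values do not settle whether the numbers mark pairs. As the labels do not state it, the numbers were not taken as pairs. Other settings gave 1974 (offset for transcript length) to 2921 (DESeq2) called genes, and the share of calls that were higher lay between 28.8% (library size alone) and 65.7% (DESeq2). Of 184 called genes eligible for naming, 98 kept their call under each alternative that tested them, 86 lost it under at least 1, and 0 changed sign. For the direct dose test 136 of 157 such genes kept it, and for the difference between lines 55 of 81. Low counts set the limit for genes such as MMP3, CYP3A4 and MUC16.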
